A study of Rattus norvegicus with 108 samples.

Results

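The genes described here encode 7 subunits of the GABA-A receptor: Gabra2, Gabra4 and Gabra5 (alpha subunits), Gabrb1 and Gabrb2 (beta), Gabrg1 (gamma) and Gabrd (delta). They were taken by symbol from the 19127 genes counted in single cells of the rat dentate gyrus, and all 7 symbols were found. Dorsal (dorDG) and ventral (venDG) dentate gyrus were punched from male Long-Evans rats, 2 months old when treatment began, that received fluoxetine, a serotonin reuptake inhibitor, at 18 mg/kg for 6 weeks (FT), or water for the same time (Sham). The dorDG FT group had 4 replicates (numbers 1, 2, 4 and 5), and the dorDG Sham, venDG FT and venDG Sham groups had 5 each. Each replicate was a pool of tissue from several animals, so p-values measure the spread between pools. Levels are given as unique molecular identifiers (UMIs) per 10000 UMIs of the same sample. The reads come from the 3′ ends of transcripts, so a level is compared between samples or cell types for one gene and not between genes.

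GABA-A receptors are chloride channels of 5 subunits that open when they bind GABA, the main inhibitory transmitter of the brain. GABA binds between an alpha and a beta subunit, and a gamma subunit helps to hold the receptor at synapses, whereas receptors with a delta subunit lie outside synapses and carry a steady, tonic inhibition. In the dentate gyrus, granule cells are known for such tonic currents through receptors of alpha 4 and delta subunits, and alpha 5 receptors also lie largely outside synapses in the hippocampus.

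Subunit genes lie in clusters. In the RefSeq annotation of the rat assembly GRCr8, Gabrb1, Gabra4, Gabra2 and Gabrg1 follow one another on chromosome 14, with Cox7b2 between Gabra4 and Gabra2. Gabrb2 is next to Gabra6 on chromosome 10, Gabra5 is next to Gabrg3 on chromosome 1, and Gabrd is on chromosome 5 with no subunit gene beside it. Promoter sequence was at hand for 6 of the 7 genes, and the 250 bases upstream of the start site are printed for 3 of them. Gabrb1 and Gabrb2 are shown because both were called lower in FT below, and Gabrg1 because its level was highest in astrocytes and oligodendrocyte precursors. Each is written 5′ to 3′ on the strand of the gene, from RefSeq on GRCr8, at chr14:36902894-36903143 (minus strand), chr10:27439543-27439792 (plus strand) and chr14:37750042-37750291 (plus strand). Capitals mark TGCGCATGCGC, the longest run of letters that the Gabrb1 and Gabrb2 windows share on either strand, and the CCAAT box (CCAAT, or ATTGG on the other strand).
Gabrb1: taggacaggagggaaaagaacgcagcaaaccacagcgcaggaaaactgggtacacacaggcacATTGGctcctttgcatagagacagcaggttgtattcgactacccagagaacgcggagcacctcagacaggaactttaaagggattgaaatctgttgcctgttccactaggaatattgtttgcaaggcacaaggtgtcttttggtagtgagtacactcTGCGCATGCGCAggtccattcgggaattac
Gabrb2: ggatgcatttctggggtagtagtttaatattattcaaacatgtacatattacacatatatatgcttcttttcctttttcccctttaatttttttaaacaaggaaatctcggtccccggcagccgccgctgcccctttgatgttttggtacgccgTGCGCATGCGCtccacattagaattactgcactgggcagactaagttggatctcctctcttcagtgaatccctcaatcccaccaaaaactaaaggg
Gabrg1: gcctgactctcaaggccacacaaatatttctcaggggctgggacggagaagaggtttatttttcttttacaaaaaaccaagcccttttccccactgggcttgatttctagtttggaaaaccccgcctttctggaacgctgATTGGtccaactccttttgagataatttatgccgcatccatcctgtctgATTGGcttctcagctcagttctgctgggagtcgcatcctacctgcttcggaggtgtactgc
The run TGCGCATGCGC contains the known binding motif of the factor NRF1 and, on either strand, occurred in 0.535% of 33469 rat promoter windows of this length. In Gabrb1 it overlaps its own copy on the other strand, GCGCATGCGCA. It has 11 bases, and over the 15 pairs of members the longest shared run had 7 to 11, so a run of this length is not particular to this pair. A CCAAT box was found once for Gabrb1 and in 2 copies for Gabrg1, against 34.0% of all windows with at least 1. The GC box (GGGCGG or CCGCCC), present in 30.5% of all windows, was found in 1 copy for Gabra4, 1 for Gabra5 and 4 for Gabrd. The windows of these 3 genes were 71.6%, 76.4% and 74% G and C, above the median of 51.2%, and those of Gabrb1, Gabrb2 and Gabrg1 were 49.2%, 43.2% and 48.4%. The matches describe these letters, and no factor was measured.

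The tables held 570 dorDG FT cells, 719 dorDG Sham cells, 1249 venDG FT cells and 809 venDG Sham cells, with 220162 to 1523537 UMIs per replicate over the 4 groups. A member's total over all 19 replicates ran from 97 UMIs for Gabrd to 7812 for Gabrb1. A cell is called low-ribosomal here if under 2% of its UMIs came from 120 genes of cytosolic ribosomal proteins, and 36.6% of the 3347 cells were. Their share of the cells was 14.5% to 42.1% in the dorDG FT replicates and 31.9% to 72% in dorDG Sham, and 16.9% to 50.3% in venDG FT and 18.9% to 61.9% in venDG Sham. Replicates 1 and 2 of each group had 2 droplet reactions each. The labels name nuclei and the methods both whole cells and nuclei, and which reaction held which is not given in the sources used here. In all, 16 cells carried a barcode that another reaction also had.

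Cell type names in dorDG are those the authors gave. The cells named InhibNeuron did not stand out by the summed markers of inhibitory neurons. Their summed level over 11 inhibitory markers was 2.22, against 4.06 in OPC (oligodendrocyte precursors), 2.65 in ExcitNeuron and 2.29 in Granule. It was 29.7 in the venDG cells clustered as inhibitory. Slc32a1, the vesicular GABA transporter, had 0 UMIs in 147 InhibNeuron cells, which allows a level of up to 0.0296, and Gad1, which makes GABA, was at 0.296 against 0.487 in the cells named Granule. Gad2, also an inhibitory marker, was at 0.217 in InhibNeuron, the highest of the 12 types, against 0.195 in Granule. In OPC, where the summed level was higher, Gad1 was at 0.239, Gad2 at 0.139 and Slc32a1 at 0, so these genes do not account for its higher sum. The summed level over 10 granule cell markers was 16.2 in InhibNeuron, the highest of the 12 types, against 7.52 in ExcitNeuron and 7.33 in Granule. Prox1, the defining factor of granule cells, was at 1.88 in InhibNeuron, 1.13 in ExcitNeuron, 0.929 in Oligodend1 and 0.901 in Granule. The cells named Mossy had a summed level of 46.0 over endothelial and 37.3 over mural markers (the cells of vessel walls). Over mossy cell markers their level was 3.63. Drd2 and Calb2 were at 0 in Mossy, but these zeros say little. Drd2 had 1 UMI in ExcitNeuron, 1 in InhibNeuron and none in the other types, and Calb2 was also at 0 in BergGlia and Microglia2. The names InhibNeuron, Granule and Mossy are therefore used below only as labels. Oligodendrocyte markers summed to 45.0 to 107 in the 10 types not named for oligodendrocytes, against 508 and 549 in Oligodend2 and Oligodend1, so oligodendrocyte transcripts were counted in every type. The part of RNA from other cells in any low level below was not tested.

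The levels of the members over the 12 dorDG types, pooled over replicates, are a description with no test, because the types were made from the same cells. Intervals are exact 95% Poisson intervals and cover counting error only.

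Gabrb1 was found in every type. Its pooled level was 15.2 (14.5 to 16.0) in InhibNeuron, 12.7 (11.6 to 13.8) in ExcitNeuron, 9.71 (8.65 to 10.9) in AstroSub1 (astrocytes), 8.03 (7.19 to 8.95) in Granule and 4.44 (3.87 to 5.06) in OPC. In the other 7 types it lay between 1.85 in Mossy and 3.01 in BergGlia, neighbours that overlapped in their intervals. Between replicates with at least 5 cells, the level in InhibNeuron ran from 9.72 over a median of 14.9 to 19.7 (n = 6), in ExcitNeuron from 8.54 to 16.6 (n = 4), in AstroSub1 from 5.43 to 13.04 (n = 8) and in Granule from 4.19 to 16.7 (n = 9). These ranges overlapped between each pair of neighbours in the order. InhibNeuron cells were 11.4% of the dorDG cells and held 41.7% of the Gabrb1 UMIs.

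Gabra4, the alpha subunit of tonic receptors in granule cells, was concentrated in the neuron types. It was at 2.30 (2.01 to 2.61) in InhibNeuron and 1.86 (1.46 to 2.32) in ExcitNeuron, at 0.584 (0.374 to 0.869) in Granule, and at 0.258 or lower in the other 9 types. InhibNeuron cells held 59.9% of its UMIs. Gabrb2 had the same first 3 types, at 2.06 (1.79 to 2.36), 0.988 (0.709 to 1.34) and 0.560 (0.355 to 0.840), with 60.8% of its UMIs in InhibNeuron cells. Gabra5 was at 0.819 (0.567 to 1.15) in ExcitNeuron, 0.631 (0.486 to 0.806) in InhibNeuron and 0.463 (0.278 to 0.722) in Granule, and the order of these 3 is within counting error.

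Gabra2 reached further into glia. Its level was 3.17 (2.84 to 3.54) in InhibNeuron, 1.86 (1.46 to 2.32) in ExcitNeuron, 1.61 (1.20 to 2.13) in AstroSub1, 1.25 (0.963 to 1.60) in OPC and 1.19 (0.882 to 1.58) in Granule, and from ExcitNeuron on each type overlapped the next. Gabrg1, a gamma subunit known from glia, had its highest levels in AstroSub1, at 1.58 (1.17 to 2.09), and OPC, at 0.875 (0.636 to 1.17), which overlapped. All other types were at 0.402 or lower, and Microglia1 had 0 UMIs. Gabrd, the delta subunit, had 47 UMIs over all dorDG cells, of which 28 were in InhibNeuron cells (0.276, interval 0.183 to 0.399), and 5 types had none. Its neighbours in the order could not be told apart at this depth.

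**Figure D1:**
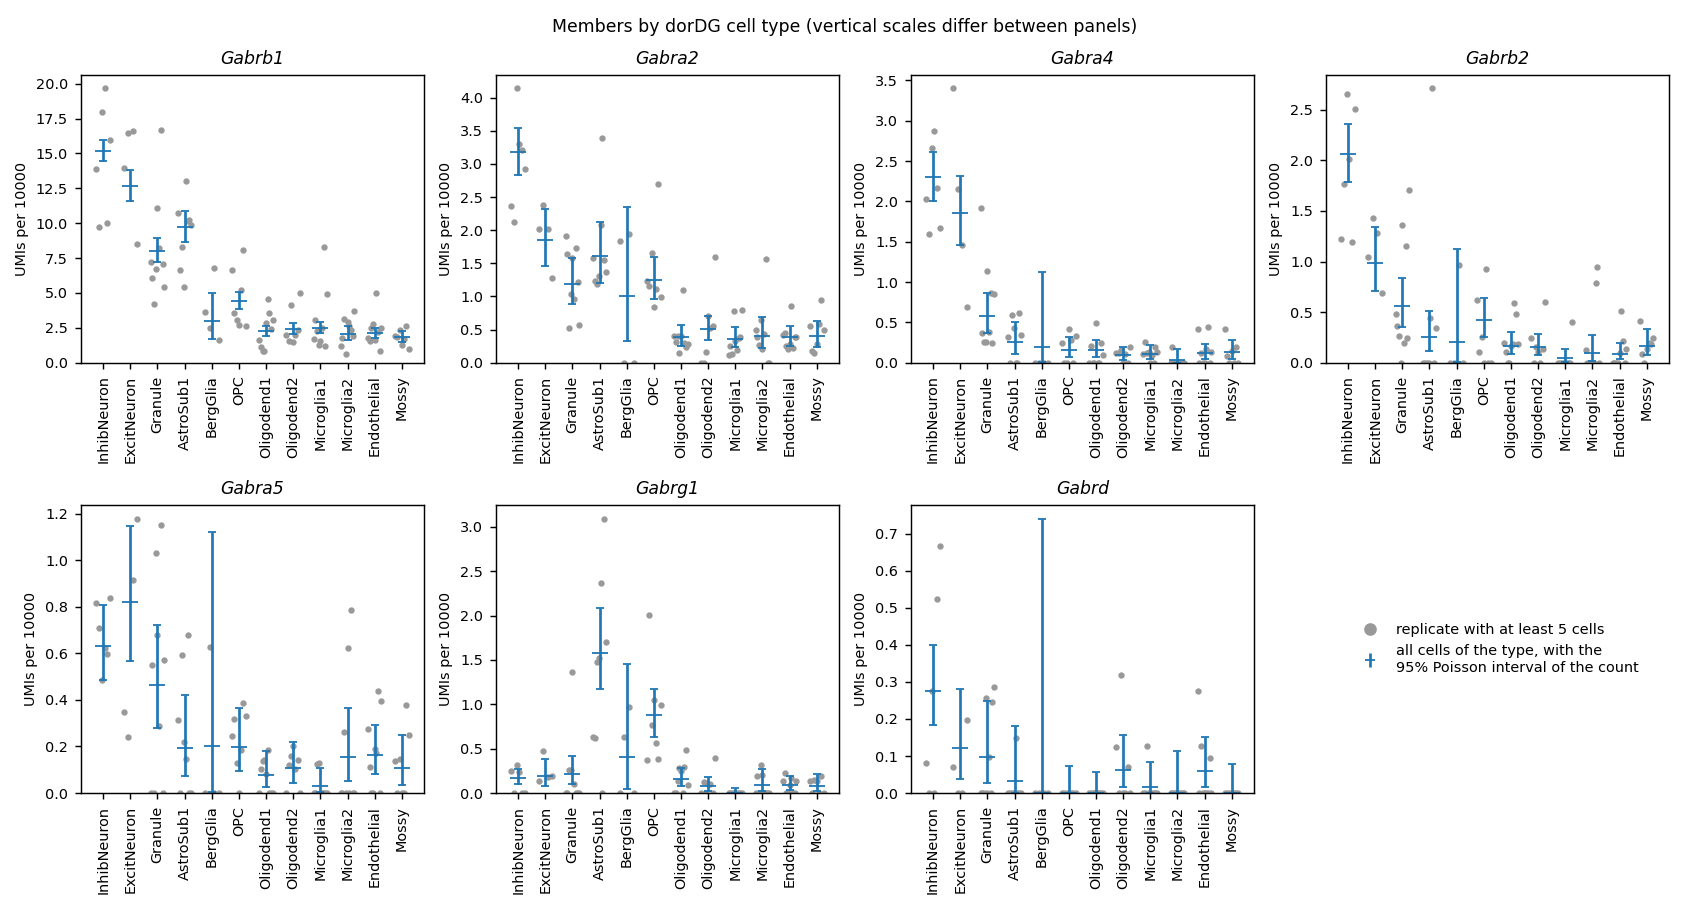
Pooled level of each member (UMIs per 10000) in the 12 dorDG types named by the authors, with exact 95% Poisson intervals; grey points are replicates with at least 5 cells, and vertical scales differ between panels. InhibNeuron and ExcitNeuron have the highest levels for Gabrb1, Gabra2, Gabra4, Gabrb2, Gabra5 and Gabrd, and AstroSub1 and OPC have the highest for Gabrg1 (1.58 and 0.875).

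In venDG, whose tables hold no cell type names, classes were rebuilt by clustering without any GABA-A gene and named from fixed markers; 576 cells (28%) stayed unnamed. In Granule-like cells, Gabrb1 was at 14.3 (13.3 to 15.4), Gabra4 at 2.56 (2.13 to 3.06), Gabra2 at 2.62 (2.19 to 3.12) and Gabrd at 0.331 (0.189 to 0.537), each the highest value of that gene among the named classes. Gabra4 was next at 1.01 (0.686 to 1.43) in Excitatory-like cells, and Gabrb1 at 11.3 (10.4 to 12.2) in Astrocyte-like cells. For Gabra2 and Gabrd the next class was Excitatory-like, at 1.73 and 0.260, and its intervals overlapped those of Granule-like cells. Gabrb2 was at 1.72 (1.06 to 2.62) in Inhibitory-like, 1.53 (1.12 to 2.04) in Excitatory-like and 1.43 (1.11 to 1.80) in Granule-like cells, which overlapped. Gabrg1 was again led by Astrocyte-like cells, at 1.58 (1.27 to 1.94), and OPC-like cells, at 1.52 (1.27 to 1.81), with Inhibitory-like cells at 1.39 (0.810 to 2.22). Gabra5 was at 0.781 (0.501 to 1.16) in Excitatory-like cells.

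Within a type, Gabrb1, Gabra2 and Gabrb2 were higher in low-ribosomal cells. For Gabrb1 this held in 12 of 12 dorDG types, by 1.13 to 6.61 times, and the intervals were apart in 10 of them. In InhibNeuron it was at 18.3 in low-ribosomal and 7.70 in other cells, and in Oligodend1 at 6.08 and 1.26. Mossy had the smallest ratio, at 2.07 and 1.83. Gabra2 and Gabrb2 were also higher in 12 of 12 types, with intervals apart in 4 each. Gabra4 was higher in 10 of 12 types, Gabrg1 in 8, Gabra5 in 6 and Gabrd in 2, mostly with overlapping intervals. Gabrg1 was at 2.71 in low-ribosomal and 0.735 in other AstroSub1 cells, but in OPC it was at 0.136 and 1.002. Low-ribosomal cells were 79.6% of InhibNeuron, 80% of ExcitNeuron, 79.8% of Granule, 62.7% of AstroSub1 and 27.6% of OPC cells. The part of this share in the order of types was not tested.

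The pattern over types was compared with that of other genes by Pearson's r of log2(UMIs per 10000 + 0.1) over the 12 dorDG types, among 7462 genes. The types share libraries and differ in depth and in low-ribosomal share, so r is a description. Nearest to Gabra4 were Gabbr2, a subunit of the GABA-B receptor (0.980), CAMK2A, a kinase of excitatory synapses (0.979), and Chn1 (0.978). Nearest to Gabrb1 were Dgkb (0.971), the adhesion molecule gene Nrcam (0.970) and the potassium channel gene Kcnma1 (0.968), and nearest to Gabra2 were Nrcam (0.975), Tnik (0.970) and Syt16 (0.970). For Gabrb2 they were Lrp1b.1 (0.981), Lyst (0.979) and Mpped2 (0.973), and for Gabra5 Atp2b2, a calcium pump gene (0.974), Atrnl1 (0.970) and C5 (0.969). Gabrg1 had fewer near genes, and the nearest were Kifc3 (0.932) and Ptprz1, a phosphatase gene of glia (0.927). The share of the genes above 0.9 was 0.228% for Gabrg1 and 3.06% for Gabra4. Gabrd was at 0.5 in no type and was left out.

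The main question of the study for these genes is whether they differ between FT and Sham. In dorDG, summed over all cells of a replicate, Gabrb1, Gabra2 and Gabrb2 were called lower in FT and Gabra4 was not called. Calls follow the thresholds that the study set within the cell types of its single-cell data. These are an adjusted p up to 0.2 with a log2 fold change (log2FC) of 0.32 or more in either direction. The study's RNA test of whole tissue used a stricter limit on adjusted p, which none of the members called here would pass. In sums over all cells, fewer cells of a type and less RNA per cell cannot be told apart. Of all 4274 genes tested, 28.6% were called and 16.1% were called lower, against 3 of the 4 members tested. The other 3 members, Gabra5, Gabrg1 and Gabrd, were below the expression limit of a mean of 0.5 UMIs per 10000.

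The level of Gabrb1 was 5.24, 4.96, 3.28 and 2.64 in FT replicates 1, 2, 4 and 5, and 8.17, 4.37, 13.4, 5.36 and 7.16 in Sham replicates 1 to 5. Sham replicate 3 was the highest, and Sham replicate 2 lay within the FT range. The means were 4.03 ± 1.27 (SD, n = 4) and 7.69 ± 3.52 (SD, n = 5), with a log2FC of -0.83 (SE 0.32, adjusted p = 0.172 by edgeR's quasi-likelihood test with Benjamini-Hochberg adjustment).

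Gabra2 was at 0.954, 0.892, 0.555 and 0.737 in FT and at 1.68, 0.847, 2.08, 1.28 and 1.20 in Sham. All Sham replicates but replicate 2 were above all FT replicates. Its log2FC was -0.75 (SE 0.25, adjusted p = 0.164 by the same edgeR test). Gabrb2 was at 0.403, 0.339, 0.218 and 0.206 in FT and at 0.968, 0.225, 1.24, 0.493 and 0.888 in Sham. Sham replicate 2 again fell among the FT values and the other 4 Sham replicates lay above them. The log2FC was -1.26 (SE 0.38, adjusted p = 0.155 by the same edgeR test).

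Gabra4 was at 0.577, 0.746, 0.185 and 0.274 in FT and at 0.913, 0.121, 1.51, 0.690 and 0.537 in Sham. The lowest value of all was a Sham replicate (2), and the groups overlapped. The log2FC was -0.61 (SE 0.49, adjusted p = 0.379 by the same edgeR test), short of the threshold. Gabra5 ranged from 0.168 to 0.282 in FT and from 0.190 to 0.510 in Sham, Gabrg1 from 0.148 to 0.328 and from 0.0691 to 0.416, and Gabrd from 0.0113 to 0.0857 and from 0 to 0.181. In none of the 7 members did the dorDG groups separate.

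**Figure D2:**
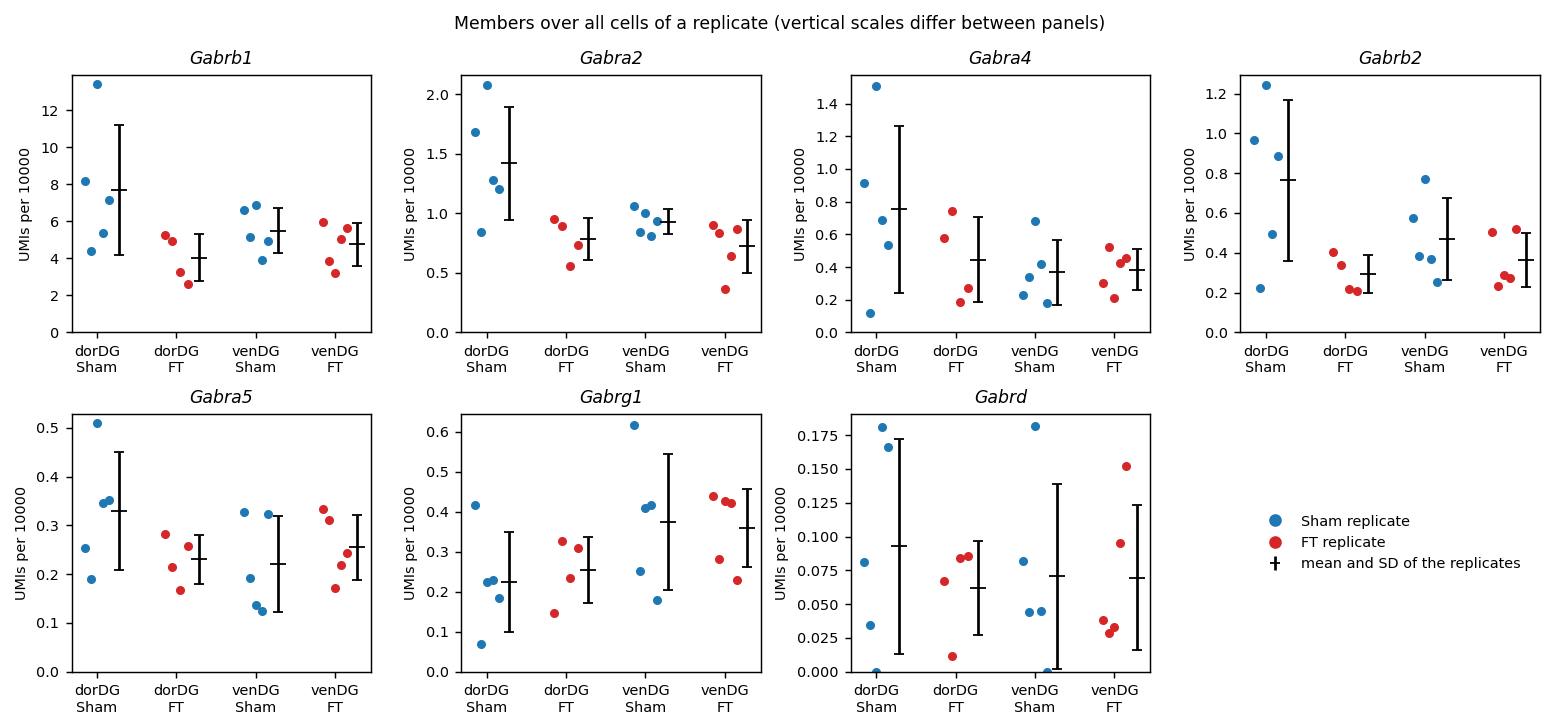
Level of each member (UMIs per 10000 over all cells of a replicate) in the 4 groups, with a point for each replicate and the group mean ± SD. In dorDG the Sham means of Gabrb1, Gabra2 and Gabrb2 are above the FT means (7.69 and 4.03 for Gabrb1), and the groups overlap.

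Other measures moved with the groups in dorDG, and their part in the calls was not tested except where a fit is given in the next paragraph. The low-ribosomal share of cells given above averaged 23.0% over the 4 FT and 51.2% over the 5 Sham replicates, with FT replicate 2 and Sham replicate 3 the highest of their groups. Cells named Granule, InhibNeuron or ExcitNeuron were 18.2%, 27.4%, 10.7% and 10.1% of the FT cells and 27.0%, 25.4%, 46%, 28.1% and 31.0% of the Sham cells. InhibNeuron cells, the type with the highest Gabrb1, were 9.79%, 2.54%, 3.05% and 4.04% in FT and 20.4%, 0%, 31%, 11.9% and 22.4% in Sham, so that Sham replicates 3 and 2 had the most and the fewest. The summed level of the 10 granule markers over all cells was 3.04 to 4.39 in FT and 4.11 to 9.44 in Sham, and that of the 9 mural markers was 3.08 to 6.84 and 0.612 to 4.78.

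The differences in dorDG were smaller once low-ribosomal cells were set apart. In cells of 2% or more, Gabrb1 was at 2.66 ± 0.455 (SD, n = 4) in FT and 2.89 ± 0.550 (SD, n = 5) in Sham, with a log2FC of -0.14, and Gabra2 had a log2FC of 0.04. In low-ribosomal cells, Gabrb1 was at 10.7 ± 2.87 and 13.9 ± 3.94, with a log2FC of -0.14. There the log2FC was -0.44 for Gabra2, -0.83 for Gabrb2 and -0.07 for Gabra4, and the number of members called was 0 in either set of cells, where 0.525% of 4379 genes were called in low-ribosomal cells and 0% of 3800 in the others. With the low-ribosomal share of each replicate as a covariate, chosen after seeing the data, the log2FC of Gabrb1 was -0.0015, of Gabrb2 -0.52, of Gabra2 -0.28 and of Gabra4 0.40, and 0% of the 4274 genes were called, members included. The dorDG calls were also lost when any one of FT replicates 4 and 5 or Sham replicates 1, 3 and 5 was left out (0 members called each). In these 5 fits no more than 1 of all genes was called, so the loss was not particular to the members. Without Sham replicate 2, 4 members and 46.8% of all 4325 genes were called.

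**Figure D3:**
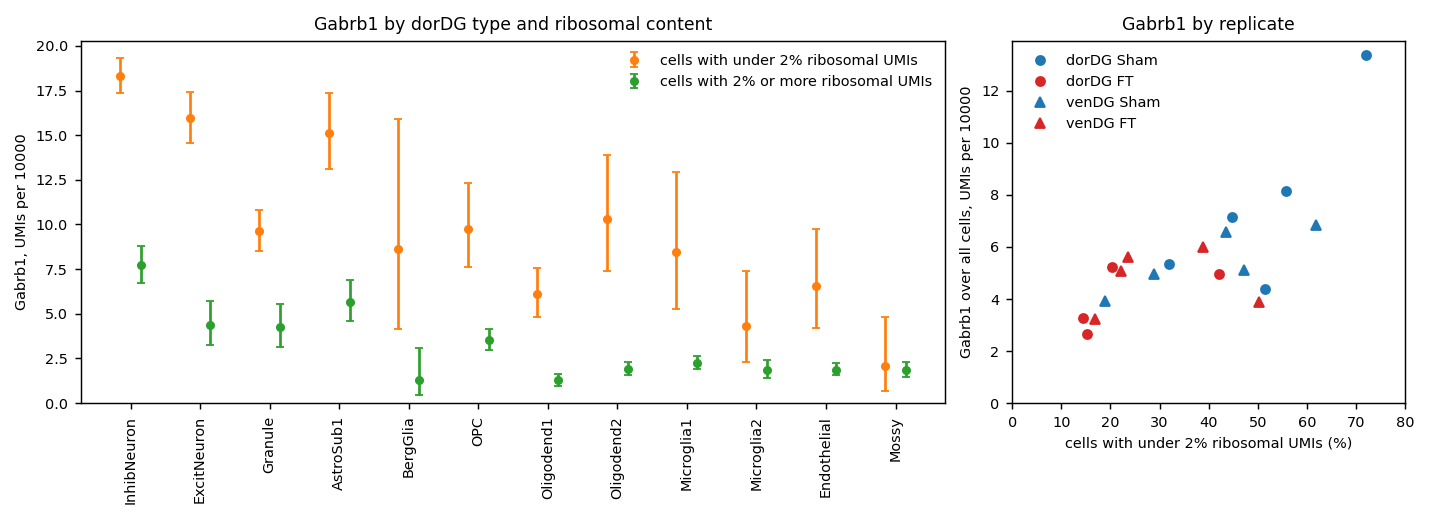
Left, pooled Gabrb1 level (UMIs per 10000, with exact 95% Poisson intervals) in the 12 dorDG types, for cells under 2% and cells of 2% or more ribosomal UMIs; right, the Gabrb1 level of each replicate over all cells against its share of low-ribosomal cells (%), with circles for dorDG and triangles for venDG. The low-ribosomal cells are higher in each type (18.3 against 7.70 in InhibNeuron), and the dorDG Sham replicate with the highest Gabrb1 (13.4) also has the largest share (72%). Not all replicates follow this order: dorDG Sham replicate 2 has 4.37 at a share of 51.4%, and dorDG FT replicate 1 has 5.24 at 20.3%.

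The 2 reactions of a replicate give a comparison within the same pool. Of the cells, 4.08% to 15.5% were low-ribosomal in the 8 first reactions and 78.3% to 95.9% in the 8 second ones. Gabrb1 was at 2.18 to 3.61 (median 2.84) in the first and at 7.44 to 15.7 (median 12.6) in the second reactions, which did not overlap. Gabrb1, Gabra2, Gabra4, Gabra5 and Gabrb2 were higher in the second reaction in 8 of 8 replicates, Gabrg1 in 6 of 8 and Gabrd in 4 of 8. With the replicate as a block, all 4 members tested were called higher in the second reaction, at a log2FC of 1.55 (SE 0.21) for Gabrb1, 1.57 (SE 0.19) for Gabra2, 1.91 (SE 0.36) for Gabra4 and 2.41 (SE 0.32) for Gabrb2. Of 4378 genes, 84.2% were called and 44.2% were called higher, so the members share this with much of the transcriptome. With the first reactions alone (2 replicates a group, chosen after seeing the data), the dorDG log2FC between FT and Sham was 0.13 for Gabrb1 and 0.42 for Gabra2, and 0% of 3553 genes were called, members included.

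**Figure D4:**
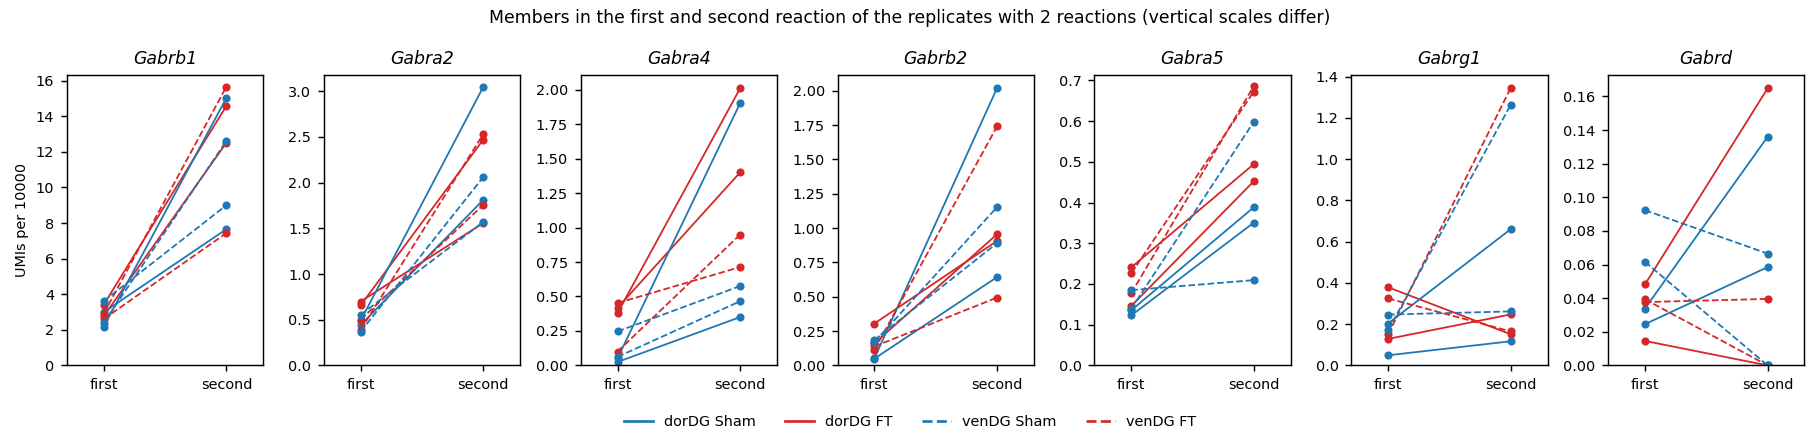
Level of each member (UMIs per 10000) in the first and second droplet reaction of the 8 replicates with 2 reactions, joined by a line per replicate. For Gabrb1 the first reactions lie between 2.18 and 3.61 and the second between 7.44 and 15.7.

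In venDG no member was called between FT and Sham. Gabrb1 was at 5.98, 3.88, 3.23, 5.07 and 5.63 in FT replicates 1 to 5 and at 6.59, 5.13, 6.86, 3.91 and 4.94 in Sham. Gabra2 was at 0.905, 0.833, 0.361, 0.640 and 0.867 in FT and at 1.06, 0.841, 0.999, 0.809 and 0.932 in Sham. Both genes overlapped between groups, with FT replicate 3 the lowest for each. The log2FC was -0.22 (SE 0.22, adjusted p = 0.831 by edgeR's test) for Gabrb1 and -0.37 (SE 0.24, adjusted p = 0.764 by edgeR's test) for Gabra2. By edgeR 0% of the 4079 genes were called, although 236 were under 0.05 before adjustment, and DESeq2 made 22 calls. The other 5 members were below the expression limit, and their groups overlapped. Gabra4 ranged from 0.210 to 0.521 in FT and from 0.179 to 0.681 in Sham, Gabrb2 from 0.232 to 0.517 and from 0.251 to 0.772, and Gabrg1 from 0.228 to 0.438 and from 0.179 to 0.618. Gabra5 ranged from 0.171 to 0.334 and from 0.124 to 0.327, and Gabrd from 0.0290 to 0.152 and from 0 to 0.182.

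Between regions, Gabrb1 and Gabra2 did not pass the test. Their log2FC of dorDG over venDG was 0.11 (SE 0.20, adjusted p = 0.958) and 0.35 (SE 0.18, adjusted p = 0.836) by edgeR's test with treatment in the model, in which 0.192% of 4161 genes were called. The difference between the FT effects of the regions, as the interaction of region and treatment, was -0.65 (SE 0.39, adjusted p = 0.620) for Gabrb1 and -0.42 (SE 0.35, adjusted p = 0.739) for Gabra2. The interaction called 0% of genes by edgeR, with 394 under 0.05 before adjustment and 8 by DESeq2. Blocked by replicate number, the interaction was -0.72 for Gabrb1 (adjusted p = 0.2, at the threshold) and -0.55 for Gabra2 (adjusted p = 0.235), and 10.3% of the 4161 genes were called by edgeR. Whether the call in dorDG and its absence in venDG differ therefore depended on the block, and the labels do not say that a number marks the same animals in both regions.

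Within cell types, FT and Sham were compared over replicates with at least 5 cells, in 9 dorDG types and 7 venDG classes. Of 31 pairs of member and type tested, 1 was called, against 0.54% of 60701 pairs of gene and type. The InhibNeuron, ExcitNeuron and BergGlia cells were in too few replicates to be tested. The called pair was Gabrb1 in Oligodend1, one of the 2 oligodendrocyte types. There Gabrb1 was at 1.60, 1.15, 0.819 and 0.863 in FT (from 6 to 11 UMIs) and at 2.88, 4.59, 3.55, 2.41 and 3.04 in Sham (from 10 to 35 UMIs), with no overlap. The log2FC was -1.51 (SE 0.34, adjusted p = 0.0741 by edgeR's test), and 2.65% of the 3693 genes tested in this type were called lower.

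Other values of the Oligodend1 samples also differed between the groups, with overlap. Low-ribosomal cells were 10%, 52%, 13.3% and 14.3% of the FT and 71.8%, 73.9%, 72.7%, 60% and 41.7% of the Sham cells. The summed level of the 10 granule markers in these cells was 2.59 to 3.39 in FT and 2.90 to 5.33 in Sham. In Oligodend1 cells of 2% or more the log2FC was -1.09 (adjusted p = 0.997 by edgeR's test). The pair was not called without FT replicate 4 (adjusted p = 0.275 by edgeR's test) or without FT replicate 5 (adjusted p = 0.239 by edgeR's test), and 0% of all genes in this type were called in either of these fits.

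For Gabrb1, the log2FC was below 0 in 14 of the 16 types, from -1.51 to 0.04, and positive in Mossy and in venDG Granule-like cells. The 9 dorDG types are views of the same dorDG replicates, and the 7 venDG classes are views of the same venDG replicates. Gabra2 was tested in 7 types, from -1.69 in Oligodend2 (SE 0.84) to 0.31 in Granule (SE 0.51). Gabrg1 in AstroSub1 had a log2FC of -0.86 (SE 0.54) and in OPC of 0.80 (SE 0.63), and Gabrb2 in Granule had -1.26 (SE 0.84). In InhibNeuron, the dorDG type with the highest granule marker level, no test was possible. Gabra4 could be tested only in cells named Granule in dorDG, with 0.05 (SE 0.75), and in venDG Granule-like cells, with 0.44 (SE 0.47). None of these passed the threshold, and the errors leave room for changes of over 1 log2 unit in several of them.

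**Figure D5:**
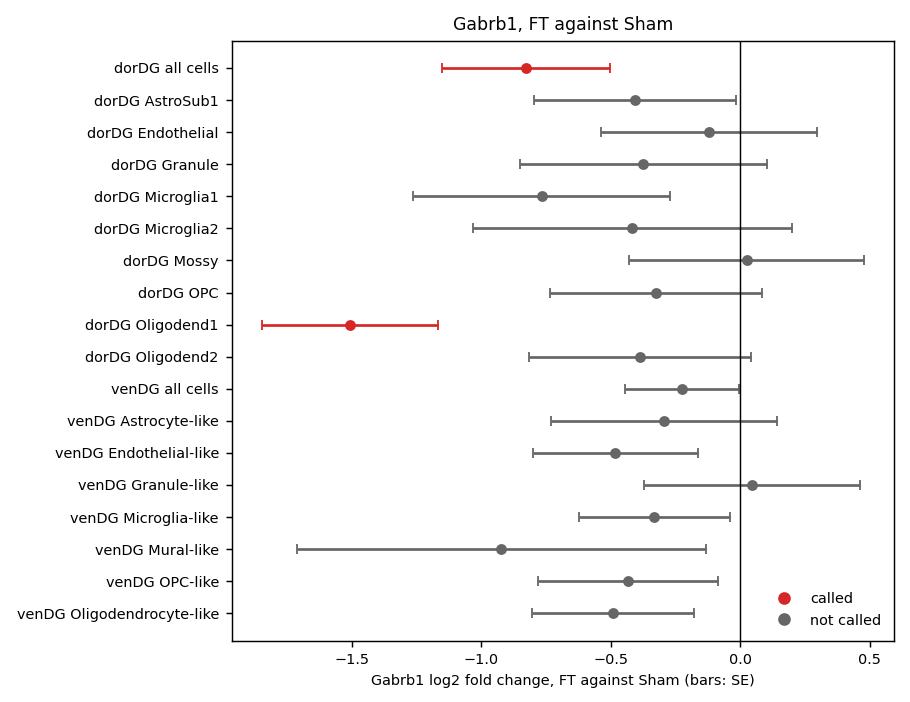
Log2FC of Gabrb1, FT against Sham, over all cells and within each type tested, with bars for its SE and called values in red. Oligodend1 has the lowest value (-1.51), and Mossy and venDG Granule-like cells lie just above 0.

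Other subunits of the receptor were also lower over all cells of dorDG. Of 10 other subunit genes in the tables, 4 were tested and 3 were called lower in FT, among them Gabrg3, a gamma subunit (log2FC -0.76, SE 0.30), where 16.1% of all genes were called lower. Gabra3, an alpha subunit, was not called and had -0.48 (SE 0.29). The median log2FC was -0.95 in this list and -0.79 in the members, against -0.04 over all genes tested. All 4 were called higher in the second reaction. In venDG 0 of 3 tested were called, where 0% of all genes were called, and within types 0 of 38 pairs, against 0.54% of all pairs of gene and type.

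Genes that anchor, transport or assist the receptor went both ways. In dorDG, 11 of 21 such genes were tested, with 3 called lower and 2 higher in FT, against 28.6% of all genes called in either direction. Among the lower were Gphn, which encodes the synaptic scaffold gephyrin (log2FC -0.97, SE 0.32), and Nsf, an ATPase of membrane fusion (-0.60, SE 0.29). Higher were Gabarapl2 (0.75, SE 0.31) and Gabarap (0.62, SE 0.27), small proteins of membrane traffic and autophagy. For Gphn, Gabarapl2 and Gabarap the signs between reactions were opposite to these. Gphn was higher in the second reaction by 1.77 (SE 0.18), and Gabarapl2 and Gabarap had -3.71 (SE 0.28) and -2.84 (SE 0.18). Of all genes tested, 44.2% were called higher and 39.9% lower in the second reaction. Within types 0 of 168 pairs were called, against 0.54% of all pairs of gene and type.

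Of 13 genes of GABA synthesis, transport and breakdown and of GABA-B receptors, 4 were tested in dorDG and 1 was called, a share near the 28.6% of all genes: Kctd16, an auxiliary subunit of GABA-B receptors, was lower in FT (log2FC -1.44, SE 0.37). It was higher in the second reaction by 2.74 (SE 0.23), as were Gabbr2 (1.60, SE 0.19) and Abat, which breaks down GABA (1.53, SE 0.21), whereas Slc12a2, a chloride importer, had -1.35 (SE 0.20). Within types 2 of 66 pairs were called, against 0.54% of all 60701 pairs of gene and type. Among them was Kctd16, lower in FT in Oligodend1 (log2FC -1.72, SE 0.52), where 2.65% of all genes tested were called lower.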

How the data were processed

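The data were droplet-based 3′ RNA profiles of dorDG and venDG cells (10x Genomics, v2 chemistry). The authors deposited a matrix of raw UMI counts by gene and cell for dorDG and for venDG, made with Cell Ranger, and a table of other per-cell annotation for dorDG with the cell type names. The submitters' processing notes name Cell Ranger, Seurat 3 and the build rn5. The authors' log-normalised venDG values (natural log, deposited) were not used. Of the venDG columns, 170 carried a second suffix and were left out, 167 of which repeated a barcode of the same reaction.

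Counts from 27 reactions (108 libraries) were summed into 19 label replicates. Sums were tested with edgeR 4.0.16 (R 4.3.3), by the quasi-likelihood test with TMM factors, over genes that averaged 0.5 UMIs per 10000 or more. P-values were Benjamini-Hochberg adjusted over all genes of a fit, SEs were taken from the fold change and F, and DESeq2 1.42.0 was an alternative. Cell types needed at least 5 cells per replicate and 3 replicates per group. The scripts were tested on simulated counts. venDG cells were clustered on 2000 variable genes, 30 components, 15 neighbours and Leiden resolution 2 without GABA-A genes. A cluster was named "-like" with 3 markers at 2-fold in at least 10% of its cells, if the next type had under 0.7 of that number, a rule set after seeing the clusters, which left 5 clusters unnamed (17.5% of FT and 14.7% of Sham cells). Unnamed too were 4 with a median UMI count under 33.3% of that of their samples and no marker of their type among their top 10 genes (9.77% and 6.06%), and 1 microglial cluster with at least 2 macrophage genes there (3.36% and 3.09%). No doublet caller was run.

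The members and gene lists were chosen with earlier results of these data known. Named genes are the members, and up to 4 called genes of each list with the largest change; some genes of the lists are not reported here. No replicate repeated another: the counts of the 36 pairs within groups, over genes with at least 10, gave a chi-square of 2.97 to 17.1 for each degree of freedom. Deviations of same-numbered replicates correlated by -0.224 to 0.362 between dorDG FT and Sham and by -0.164 to 0.265 in venDG, so numbers were not taken as pairs. Intervals cover counting error only. Promoter letters are from RefSeq (GRCr8).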

Additional observations from a re-analysis of the deposited data

How the results depend on the processing

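Over all cells of dorDG, 3 members were called lower in FT, as they were with DESeq2 (43.3% of all genes called) and with library size alone (26.5%). The number was 0 with an adjusted p of at most 0.05, with a total of at least 10 counts as the filter, in cells of 2% ribosomal UMIs or more, in cells under 2%, with the low-ribosomal share as a covariate and in the first reactions. These settings called 0% to 0.525% of all genes, and 0 genes at the stricter threshold. It was 0 to 4 when 1 replicate was left out. With a replicate block it was 0 (0 of 4274 genes called), and in dorDG the numbers were not shown to pair the samples: 1 of 4 correlated best with its own number. With the block, the interaction called 428 of 4161 genes, against 0 without it, and 1 member, Gabrb1 (-0.72, adjusted p = 0.2 by edgeR, at the threshold). Between regions, same-numbered replicates correlated by 0.0963 to 0.353 in FT, where 3 of 4 were closest to their own number, and by 0.198 to 0.561 in Sham, where 4 of 5 were. The block changed no other count of members called. Within types, 1 pair was called. The number was 0 at an adjusted p of at most 0.05 and in either set of cells by ribosomal share, 2 with a total of at least 10 counts, and 0 to 2 when 1 replicate was left out (0 without dorDG FT replicate 4 or 5, 2 without venDG FT replicate 1 or Sham replicate 4). Counts of calls moved by over 1.5 times in 21 of 134 settings.

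Over the alternative settings of single members, 48 log2FC values had the other sign, and 622 kept their sign and their side of the threshold. Of the values called, those of Gabra2 and Gabrb1 over all dorDG cells were among the values whose sign changed in some settings. In dorDG the values of the other sign were Gabra2 in cells of 2% or more (0.040) and in first reactions (0.42). Gabrb1 in first reactions (0.13) and Gabra4 with the covariate (0.40) also had the other sign. In low-ribosomal cells, Gabrb1 had 0.030 in venDG and -0.033 between regions, and in cells of 2% or more the interaction of Gabra2 was 0.21. Within types, Gabrb1 had 0.071 in dorDG Endothelial cells of 2% or more, and 0.82 in venDG Endothelial-like cells at Leiden resolution 1. In venDG Granule-like cells Gabrb1 had -0.046 with DESeq2, -0.034 with library size alone, -0.044 with the replicate block, -0.037 with second-suffix cells and -0.036 with at least 1 cell per replicate, and Gabrb2 had 0.0031 with a total of at least 10 counts. In dorDG Granule, Gabra2 had -0.91 and Gabra4 -0.46 in low-ribosomal cells, and Gabra4 had -0.22 with library size alone and -0.028 with a total of at least 10 counts. Gabra2 in OPC had 0.053 with at least 1 cell per replicate. Gabrg1 in venDG Astrocyte-like cells had -0.14 with library size alone and -0.0087 with second-suffix cells. The cause was not tested.

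Leaving out 1 replicate gave these ranges where the sign changed. Gabrb1 ranged from -0.36 to 0.32 in Endothelial, from -0.27 to 0.46 in Mossy, from -0.80 to 0.020 in Oligodend2, from -0.56 to 0.042 in Astrocyte-like, from -0.21 to 0.37 in Granule-like and from -0.72 to 0.18 in OPC-like cells, and from -0.042 to 0.20 between regions. Gabra2 in OPC ranged from -0.38 to 0.22, Gabra4 in Granule from -0.78 to 0.35, and Gabrb2 in Granule-like cells from -0.22 to 0.20. Gabrg1 ranged from -0.34 to 0.90 in Astrocyte-like and from -0.12 to 0.53 in OPC-like cells. Gabra5, Gabrg1 and Gabrd, with 97 to 489 UMIs in all, limit what could be detected.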
